A study of Mus musculus with 12 samples.

Results

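The genes described here, 10 in number, are not part of the known programmes of regulatory T cells and had been picked because their signal was higher in the Cd83 knockout arrays. They are Plxnb2, Nfasc, Adam22, Prom1, Pkd2, Arhgef16, Dennd2a, Prss29, Fndc3b and Nxpe5. Every non-control probe that the scanner files name for one of them was taken, which gave 15 of 55681 probes. All 10 genes had a probe bright enough for the fits, among 18549 genes fitted. Because the difference between knockout and wild type chose the genes, that difference is described below without a test.

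Regulatory T cells (Treg) restrain immune responses and are defined by the transcription factor Foxp3. CD83 is a surface glycoprotein best known from mature dendritic cells, and activated T cells carry it too. The 10 genes are better known from neurons, kidney, retina, uterus and fat cells than from T cells: they encode a semaphorin receptor, adhesion proteins, an ion channel, exchange factors for small GTPases, a secreted protease, and proteins of poorly known function.

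RNA of Treg sorted from spleens of female C57BL/6 mice was hybridised to 12 single-colour mouse arrays. KO, labelled CD83cKO, was measured at 0 h, without activation, and at 3 h, after anti-CD3 and anti-CD28. Of the 3 KO arrays at each time, replicates 1 and 2 came from mice aged 10 weeks and replicate 3 from mice aged 21 weeks. WT, labelled CD83 WT, was measured on 3 arrays at 0 h and 3 arrays at 3 h, from mice aged 9 weeks. No Cre driver is named in the labels. With 6 mice listed against 12 arrays, mice must be shared, and errors measure only the spread between arrays. There were 3 slides: 1 carried every KO array, another WT at 0 h, and the last WT at 3 h, so slide and genotype cannot be told apart wherever KO is set against WT. Amplification began with 20 ng of RNA for 1 sample at 0 h and with 40 ng for the rest, and the sample's genotype is not stated.

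Cd83 itself was lower in KO on every array: its normalized log2 signal ran from 0.24 to 0.75 in KO and from 2.17 to 2.39 in WT at 0 h, and from 1.06 to 1.92 in KO and from 3.65 to 4.21 in WT at 3 h. The Foxp3 probe passed the scanner flag for well above background in KO on 6 arrays of 6 and in WT on 0 of 6, while Il2ra, Ctla4 and Ikzf2 were well above it on all 12. Between 42.92% and 54.63% of probes were well above background per array. The signal of 10 Treg markers was summed in multiples of the array's 75th percentile. On the KO arrays from 21-week mice the sum was 3.5 at 0 h and 4.82 at 3 h. At 0 h it was 27.6 and 27.5 on the 10-week KO arrays and 37.2 to 42.3 on WT arrays. At 3 h it was 71.5 and 64.5 on the 10-week KO arrays and 72.3 to 77.9 on WT arrays. The 10-week KO arrays thus also lay below the WT arrays of the same time, by less. These 21-week arrays stand apart, and results that rest on them are given with and without them. Foxp3 went against the sum. On the 21-week against the 10-week KO arrays it alone of the 10 Treg markers was called higher (2.55 ± 0.475, log2, SE, limma adjusted p = 0.00221), and 9 were called lower. Foxp3 was also called higher in KO than in WT at 3 h (5.10 ± 0.876, limma adjusted p = 0.0199).

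Signal is given throughout as normalized log2 signal of 1 probe: the log2 processed intensity minus the array's 75th percentile over probes well above background on all 12 arrays. A value of -5 is thus far dimmer than most measured probes. Levels of different probes are not compared. Where a probe was not well above background on any array of the dimmer group, a fold is a lower bound, computed against the lowest signal among probes well above background on those arrays. These bounds are approximate, since some values without the flag lay above that lowest signal. Nfasc on KO at 3 h replicate 1, for example, read -6.68 without the flag, where the lowest was -6.84. In bulk RNA, fewer cells of a type and less RNA per cell cannot be told apart.

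Every KO array lay above every WT array of the same time for 10 of 10 genes at 0 h and for 10 of 10 at 3 h. The same held for 16.9% of all genes at 0 h, for 11.8% at 3 h and for 5.59% at both times. All 6 KO arrays lay above all 6 WT arrays for 6 of the 10 genes, against 1.8% of all genes. The genes were chosen for this difference, so the counts only restate the choice. The median KO minus WT difference of the 10 genes was 3.63 on the log2 scale at 0 h and 2.32 at 3 h, where the median over all genes was -0.03 at 0 h and 0.04 at 3 h.

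**Figure D1:**
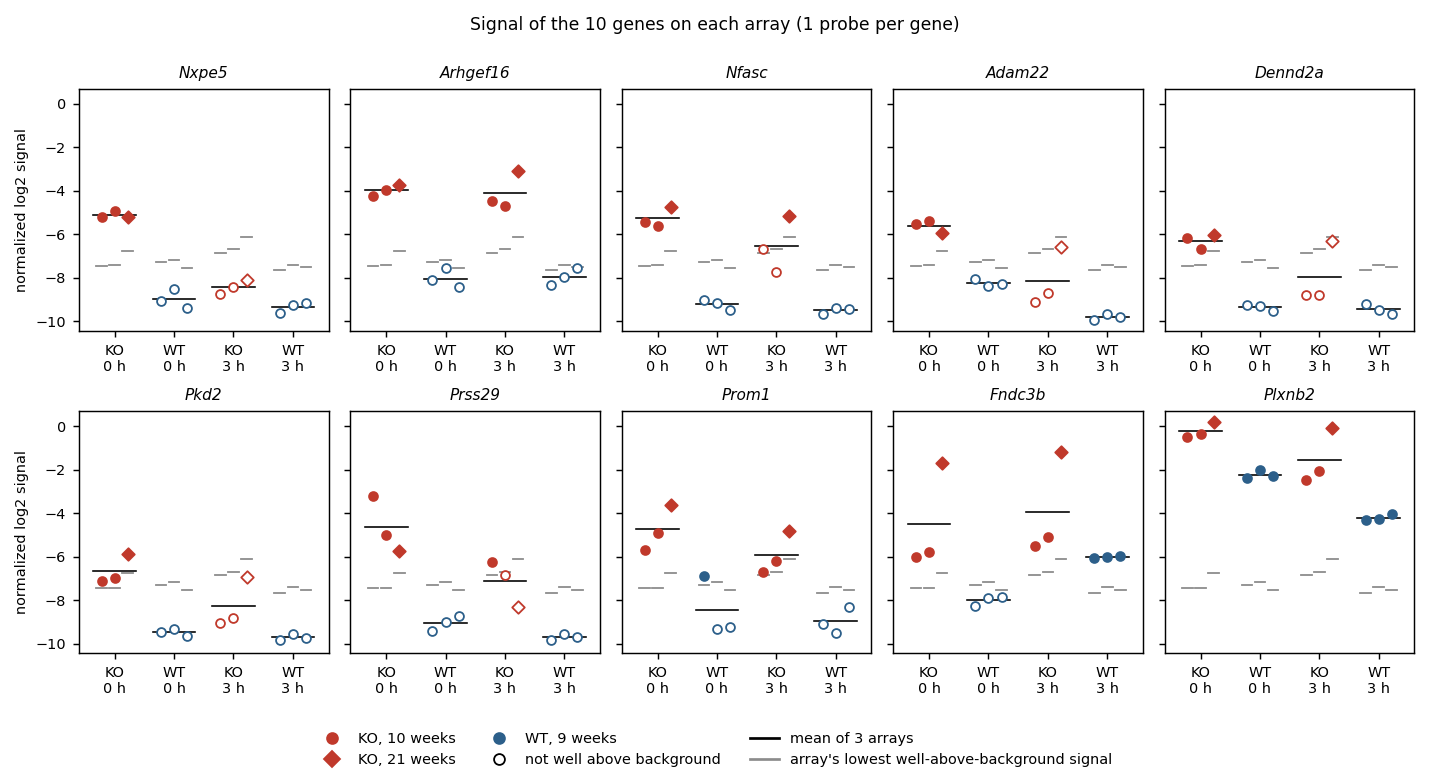
Normalized log2 signal (y axis) of 1 probe for each of the 10 genes on each of the 12 arrays, grouped by genotype and time (x axis), with filled points for well above background, open points for not well above it, diamonds for 21-week mice, black lines for means of 3 arrays and grey ticks for the lowest well-above-background signal of each array. Plxnb2 was measured on all 12 arrays, whereas WT points of most other genes are open and lie below the grey ticks.

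Plxnb2 encodes plexin-B2, a cell surface receptor for class 4 semaphorins. It was the only one of the 10 genes whose probe was well above background on all 12 arrays. Plxnb2 signal at 0 h, on the normalized log2 scale, was -0.50, -0.35 and 0.18 in KO, against -2.37, -2.02 and -2.30 in WT. Plxnb2 signal at 3 h was -2.47, -2.08 and -0.08 in KO, against -4.33, -4.28 and -4.02 on WT arrays. The groups did not overlap at either time, but the 10-week KO arrays at 3 h lay at the level of the WT arrays at 0 h. KO was 4.02-fold above WT at 0 h (log2 difference 2.01 ± 0.507, SE) and 6.35-fold above WT at 3 h (2.67 ± 0.507). Each group held 3 arrays, and the SE pools the spread over all groups of the fit, so it is the same at both times. The SD of the arrays was 0.357 in KO and 0.185 in WT at 0 h, and 1.28 in KO and 0.166 in WT at 3 h. The order of levels was KO at 0 h, KO at 3 h, WT at 0 h and WT at 3 h, and the middle 2 groups overlapped.

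Nfasc encodes neurofascin, an adhesion protein of the L1 family that clusters ion channels at the nodes and initial segments of axons. Nfasc signal at 0 h, on the normalized log2 scale, was -5.45, -5.60 and -4.73 in KO, all well above background, against -9.00, -9.15 and -9.50 in WT, none of them well above it. Nfasc signal at 3 h was -6.68, -7.74 and -5.14 in KO, of which only the last, from a 21-week mouse, was well above background, against -9.68, -9.40 and -9.42 in WT. All 6 KO arrays were above all 6 WT arrays. Nfasc was at least 4.19-fold higher in KO than in WT at 0 h and at least 2-fold at 3 h. The 3 h bound rests on the 21-week array, and none remained without it, since the other KO arrays at 3 h were dim.

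Adam22 encodes a member of the ADAM family without protease activity that serves as a receptor for the secreted synaptic protein LGI1. The probe that stood for the gene, A_55_P2028474 (mm9 chromosome 5, 8072390 to 8072449, minus strand), gave a normalized log2 signal of -5.54, -5.38 and -5.96 in KO, against -8.06, -8.36 and -8.29 in WT, at 0 h. The same probe at 3 h gave -9.12, -8.68 and -6.60 in KO, against -9.94, -9.68 and -9.80 in WT, with no array well above background. By this probe Adam22 was at least 3.25-fold higher in KO at 0 h, without overlap, and no fold is given for 3 h.

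A second Adam22 probe, A_55_P2028465 (mm9 chromosome 5, 8092341 to 8092400, minus strand), went the other way. At 0 h the KO arrays read -6.29, -7.72 and -6.57 on the same scale, against -4.14, -6.88 and -7.83 in WT. By 3 h the readings were -7.72, -8.65 and -6.76 in KO, against -5.52, -8.55 and -5.48 in WT. This probe passed the background flag on 1 KO array and 3 WT arrays of 6 each, its groups overlapped, and its mean was lower in KO at both times (-0.58 ± 1.04 at 0 h and -1.19 ± 1.04 at 3 h, log2, SE). The third Adam22 probe was well above background on 0 of 12 arrays. The files place the disagreeing probes at base 8970 and base 2636 of different Adam22 transcripts, and whether these probes detect those transcripts was not tested. The higher signal in KO was thus seen with 1 of 3 probes. The sequence of the second probe, 5′ to 3′ in the sense of the transcript and with no base capitalised, is shown because it disagrees:
Adam22 A_55_P2028465: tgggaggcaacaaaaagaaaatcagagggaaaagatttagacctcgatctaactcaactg

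Prom1 encodes prominin-1, a protein of membrane protrusions used as a marker of stem and progenitor cells and needed for photoreceptor discs. Its probe A_55_P2059931 gave a normalized log2 signal of -5.67, -4.89 and -3.62 in KO, against -6.88, -9.30 and -9.23 in WT, at 0 h. Prom1 at 3 h read -6.68, -6.21 and -4.82 in KO, against -9.07, -9.51 and -8.30 in WT. All 6 KO arrays and 1 of the 3 WT arrays at 0 h were well above background, and every KO array was above every WT array. The fitted difference at 0 h was 3.74 ± 0.763 (log2, SE), and with dim values raised to the lowest well-above-background signal of their array it was 2.47. At 3 h the fold was at least 3.06. The other Prom1 probe, A_52_P402786, was well above background on 0 of 12 arrays. The files place the measured probe at base 3686 and the silent one at base 2436 of their transcripts. From the measured probe 30 bases are shown, with AATAAA, the hexamer found before most polyadenylation sites, in capitals, and the silent probe is shown whole without capitals:
Prom1 A_55_P2059931, bases 28 to 57: gttgagatttaaAATAAAgcatgaatgaac
Prom1 A_52_P402786: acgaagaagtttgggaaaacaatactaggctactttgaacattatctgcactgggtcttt

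Prss29 encodes a tryptase-like serine protease that is secreted by glands of the mouse uterus around implantation. Its probe A_55_P1956906 gave a normalized log2 signal of -3.22, -5.00 and -5.73 in KO, against -9.42, -8.99 and -8.73 in WT, at 0 h. Prss29 at 3 h read -6.25, -6.85 and -8.30 in KO, against -9.84, -9.54 and -9.71 in WT, and only the first of these KO arrays was well above background. The groups did not overlap, and the 21-week array was the lowest of its KO group at both times. Prss29 was at least 6.38-fold higher in KO at 0 h and at least 1.31-fold higher at 3 h. Without replicate 1 of KO the bound at 0 h was 3.89-fold, and at 3 h no bound remained. Within KO, the fitted 3 h minus 0 h difference was -2.48 ± 0.634 on the log2 scale (SE).

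The second Prss29 probe, A_55_P2067295, was well above background on 1 array, KO at 0 h replicate 1, with -4.91 against -7.87 and -7.81 on the other KO arrays and -8.41, -8.25 and -9.53 in WT. That array was the highest of the 12 by both probes. At 3 h the second probe gave -8.87, -8.69 and -8.19 in KO, against -9.71, -9.42 and -9.24 in WT, with no array well above background. The probes lie at base 713 (mm9 chromosome 17, 25459078 to 25459137, plus strand) and at base 1121 (25459570 to 25459629) of the same transcript. They are shown because they measured the same transcript differently, the first whole and the second by 30 bases with AATAAA in capitals:
Prss29 A_55_P2067295: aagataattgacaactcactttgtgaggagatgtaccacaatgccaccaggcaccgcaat
Prss29 A_55_P1956906, bases 26 to 55: cctggcttcctaAATAAAgatatgtttgtt

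**Figure D2:**
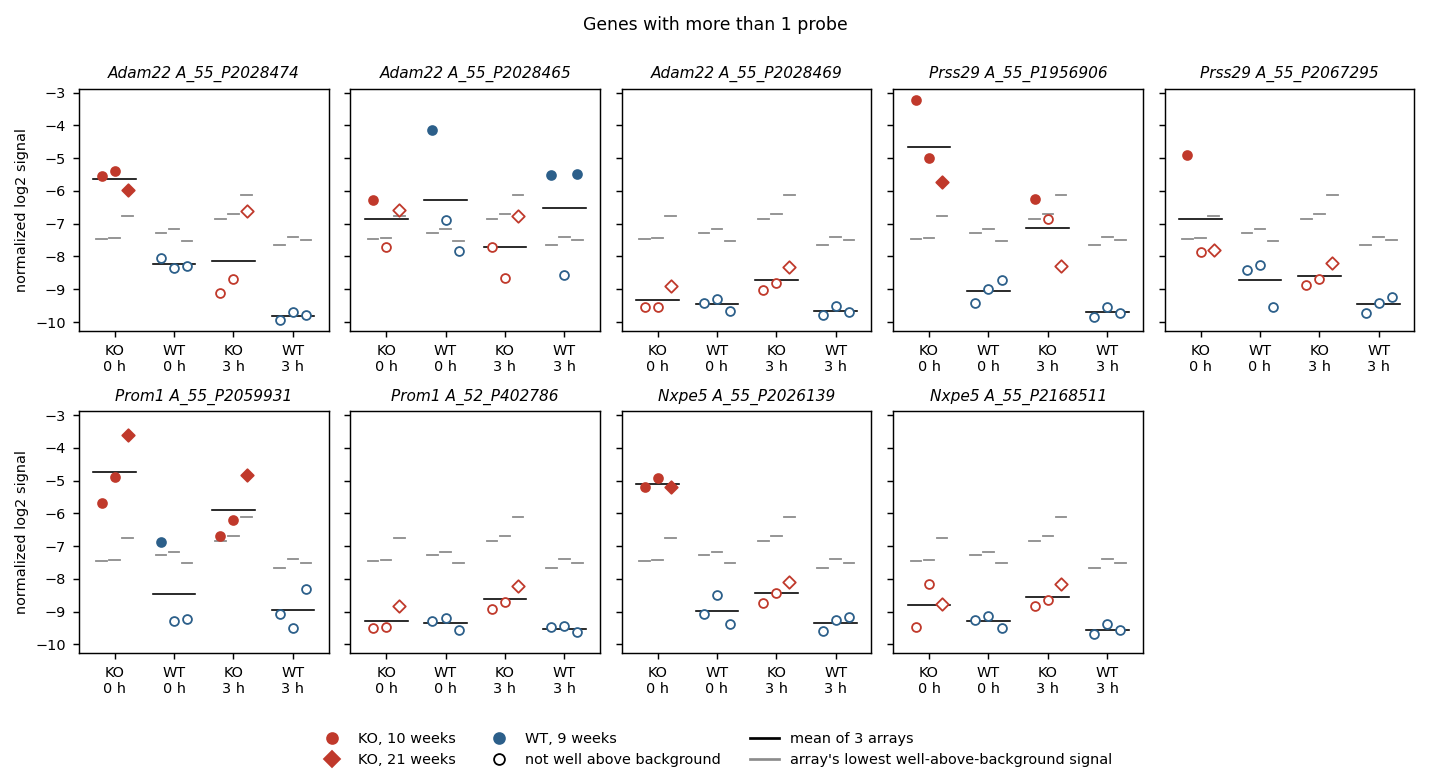
Normalized log2 signal (y axis) of each probe of the 4 genes with more than 1 probe, by genotype and time (x axis), with symbols as in the plot of the 10 genes. The first probe of Adam22 is high in KO at 0 h, the second is highest on a WT array, and the third is open on all 12 arrays, as are 1 probe each of Prom1 and Nxpe5.

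Arhgef16 encodes a guanine nucleotide exchange factor that binds the ephrin receptor EphA2. Arhgef16 signal at 0 h, on the normalized log2 scale, was -4.26, -3.97 and -3.72 in KO, against -8.12, -7.56 and -8.41 in WT. Arhgef16 signal at 3 h was -4.45, -4.70 and -3.09 in KO, against -8.35, -7.94 and -7.57 in WT. Its probe passed the background flag in KO on 6 arrays of 6 and in WT on 0 of 6, the clearest separation in detection among the 10 genes. Arhgef16 was at least 10.1-fold higher in KO than in WT at 0 h and at least 10.9-fold at 3 h. The KO groups at 0 h and 3 h overlapped, as did the WT groups.

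Dennd2a encodes a DENN domain protein that acts as an exchange factor for the endosomal GTPase Rab9. Dennd2a signal at 0 h, on the normalized log2 scale, was -6.17, -6.69 and -6.01 in KO, against -9.23, -9.28 and -9.54 in WT. Dennd2a signal at 3 h was -8.78, -8.79 and -6.32 in KO, against -9.21, -9.47 and -9.65 in WT, and 0 of these 6 arrays were well above background. Dennd2a was at least 2.05-fold higher in KO than in WT at 0 h. The 3 h difference of 1.48 ± 0.556 (log2, SE) was carried mainly by the 21-week array, since the 10-week KO arrays lay only just above the WT arrays.

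Pkd2 encodes polycystin-2, a cation channel of primary cilia and the endoplasmic reticulum that is mutated in polycystic kidney disease. Pkd2 signal at 0 h, on the normalized log2 scale, was -7.10, -6.97 and -5.86 in KO, against -9.45, -9.33 and -9.66 in WT. Pkd2 signal at 3 h was -9.03, -8.81 and -6.95 in KO, against -9.83, -9.57 and -9.72 in WT, again with 0 of 6 arrays well above background. Pkd2 was at least 1.61-fold higher in KO than in WT at 0 h, the smallest of the bounds at 0 h. Pkd2 and Dennd2a followed each other across arrays (Pearson r = 0.978 over 12 arrays, which share the genotype and slide split).

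Fndc3b encodes a membrane protein with fibronectin type III domains that is known from fat cell differentiation. Fndc3b signal at 0 h, on the normalized log2 scale, was -5.99, -5.79 and -1.67 in KO, against -8.27, -7.91 and -7.84 in WT. Fndc3b signal at 3 h was -5.49, -5.09 and -1.21 in KO, against -6.06, -6.00 and -5.97 in WT. Fndc3b was at least 7.16-fold higher in KO than in WT at 0 h, and the fitted difference at 3 h was 4.22-fold (2.08 ± 1.25, log2, SE). Both values depend on the 21-week arrays, which were far above the others; without the one at 0 h the bound there was 2.7-fold. The WT arrays reached well above background at 3 h only, where the 10-week KO arrays were higher by less than 1 on the log2 scale.

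Nxpe5 belongs to a family with neurexophilin and PC-esterase domains whose function is little known. Its probe A_55_P2026139 read -5.21, -4.92 and -5.20 in KO, against -9.06, -8.50 and -9.38 in WT, on the normalized log2 scale at 0 h. Nxpe5 at 3 h read -8.75, -8.43 and -8.11 in KO, against -9.60, -9.26 and -9.15 in WT. It was well above background on the 3 KO arrays at 0 h and on none of the other 9. Nxpe5 was at least 4.65-fold higher in KO than in WT at 0 h, and within KO the signal at 0 h exceeded that at 3 h at least 2.72-fold. The KO replicates at 0 h lay close together, the 21-week array included. The other Nxpe5 probe was well above background on 0 of 12 arrays.

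The differences at 3 h have to be read against an offset in the dim range. Over 19007 probes that were not well above background on any array, the median KO minus WT difference was 0.12 on the log2 scale at 0 h and 0.96 at 3 h. The 3 h difference of Nxpe5, 0.91 ± 0.253 (SE), was no larger than that offset. With quantile normalization the offset at 3 h was 0.02, the Nxpe5 difference was 0.21, and Nxpe5 and Dennd2a no longer had every KO array above every WT array, which left 8 of 10 genes. In the authors' deposited log2 table the count was also 8. Arhgef16, Nfasc, Prom1, Prss29 and Plxnb2 differed at 3 h by 2.57 to 3.88. With dim values raised to the lowest well-above-background signal of their array, a gene that was dim on every array at 3 h, such as Nxpe5, differed by 0.97. On that scale Arhgef16 differed by 3.44, Plxnb2 by 2.67 and Prom1 by 1.62, while Nfasc (1.35) and Prss29 (1.16) came close to 0.97.

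Without both 21-week arrays the count stayed at 10 of 10 genes at each time. That was fixed in advance for the same probes, since leaving out arrays cannot bring in overlap. Several differences shrank without those arrays. That of Fndc3b was 2.11 ± 0.168 (log2, SE) at 0 h and 0.72 ± 0.168 at 3 h, in place of 3.52 ± 1.25 and 2.08 ± 1.25 with them. The median over the probes not well above background on any array was then 0.76 at 3 h, with quartiles of 0.61 and 0.79. The 3 h differences of Adam22 (0.90), Pkd2 (0.79), Nxpe5 (0.74) and Dennd2a (0.66) lay close to it. That of Fndc3b was of similar size, but its probe was well above background on every array at 3 h, outside the range of those probes. Over all genes fitted the median at 3 h was then 0.05. Arhgef16 (3.38), Prss29 (3.15), Prom1 (2.52), Nfasc (2.29) and Plxnb2 (1.94) remained above both medians.

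**Figure D3:**
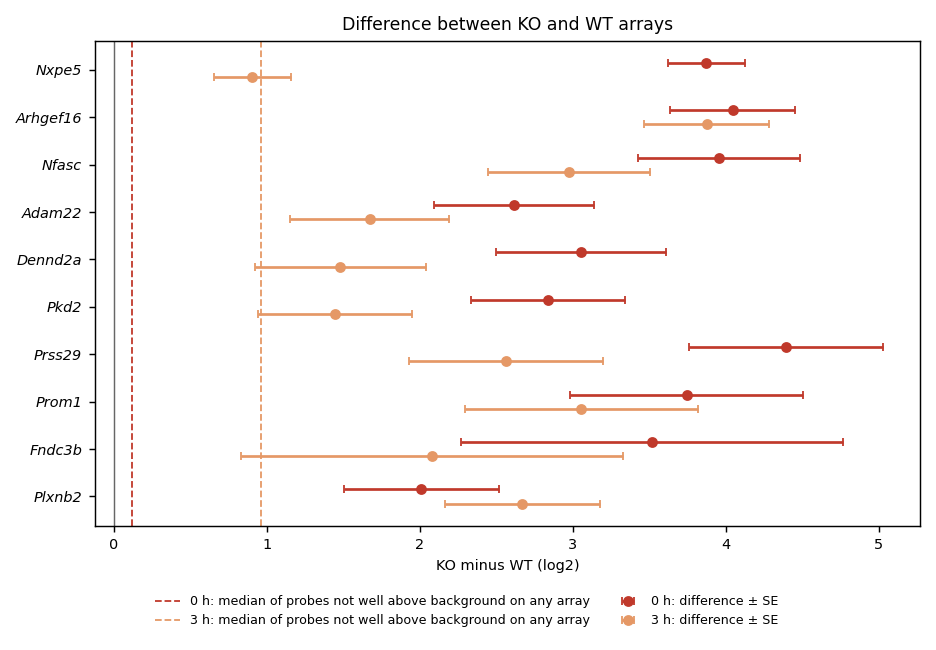
KO minus WT difference in normalized log2 signal (x axis) with its standard error for the 10 genes (y axis) at 0 h and 3 h, and dashed lines at the median difference of 19007 probes that were not well above background on any array. At 0 h all 10 points lie far right of the line at 0.12, and at 3 h Nxpe5 lies at the line at 0.96.

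Activation was compared in a contrast that the choice did not use, 3 h minus 0 h averaged over the genotypes, with limma and Benjamini-Hochberg adjustment over all 18549 genes, of which 22.8% fell and 18.6% rose. Plxnb2 fell by 1.65 ± 0.359 on the log2 scale (SE, limma adjusted p = 0.00477), and at 3 h every array of both genotypes except the 21-week KO array lay below all arrays of its genotype at 0 h. The other 3 genes that were not fitted through KO at 0 h alone did not pass. Prom1 differed by -0.83 ± 0.54 (limma adjusted p = 0.243) and Fndc3b by 1.27 ± 0.883 (limma adjusted p = 0.275). Arhgef16 differed by -0.01 ± 0.289 (limma adjusted p = 0.986), a sign that turns with the scaling (0.20 with quantile normalization). Without both 21-week arrays Fndc3b rose by 1.30 (limma adjusted p = 4.04e-05). The larger part lay in WT (1.99 on the log2 scale), across slides and from arrays at 0 h that were not well above background. On the KO slide the 10-week arrays read -5.99 and -5.79 at 0 h and -5.49 and -5.09 at 3 h.

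For the other 6 genes, KO at 0 h was the one group with every array well above background, so they entered the fit because they were bright there and a lower value elsewhere was built in. Their differences are therefore given without a test. Nxpe5 differed by -1.84 ± 0.179 (log2, SE), Adam22 by -2.04 ± 0.369 and Prss29 by -1.57 ± 0.448. Pkd2 differed by -0.92 ± 0.358, Dennd2a by -0.89 ± 0.393 and Nfasc by -0.77 ± 0.374.

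The WT arrays of this contrast lie on separate slides at 0 h and 3 h. Within the KO slide alone, where 7.36% of all genes rose and 9.85% fell, 3 h minus 0 h was -1.32 ± 0.507 for Plxnb2 (log2, SE, limma adjusted p = 0.102), so its call is lost there. The change with activation in KO minus that in WT holds the contrast that chose the genes and is given without a test: it was -2.97 ± 0.357 for Nxpe5, the largest in size of the 10, and 0.66 ± 0.717 for Plxnb2.

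The age difference was taken within KO and within 1 slide, with the group means in the model. It sets the 2 arrays from 21-week mice against the 4 from 10-week mice. The fit held the WT arrays on the other slides too, so SE and p-value pool their spread with that of KO. For Pkd2, for example, the WT arrays were dim, with an SD of 0.167 at 0 h and 0.131 at 3 h. The p-values thus do not measure spread within KO or within 1 slide alone. Of the 10 genes, 6 were higher and 1 was lower on the 21-week arrays by limma, where 23.1% of all genes were higher and 24.9% lower. Over the probes not well above background on any array the median of this difference was 0.59, with quartiles of 0.35 and 0.64. Fndc3b was higher by 4.15 ± 0.16 on the log2 scale (SE, limma adjusted p = 3.74e-07), and its 21-week values of -1.67 and -1.21 stood far from every other array. Pkd2 was higher by 1.58 ± 0.188 (limma adjusted p = 0.000201), Plxnb2 by 1.40 ± 0.307 (limma adjusted p = 0.00505) and Nfasc by 1.43 ± 0.337 (limma adjusted p = 0.0073).

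Dennd2a was higher by 1.44 ± 0.382 (limma adjusted p = 0.0126) and Arhgef16 by 0.94 ± 0.318 (limma adjusted p = 0.0357). Prss29 was the gene that went down, by -1.68 ± 0.419 (limma adjusted p = 0.00932), with the lowest place in both KO groups; the call was lost with normexp background (-0.26, limma adjusted p = 0.46) and with dim values raised (-0.64, limma adjusted p = 0.325). Prom1 (1.64 ± 0.643, limma adjusted p = 0.0611), Adam22 (0.90 ± 0.488, limma adjusted p = 0.155) and Nxpe5 (0.18 ± 0.26, limma adjusted p = 0.597) did not pass. By position, the 21-week array lay above both 10-week arrays at both times for 7 of 10 genes (29.2% of all genes) and below both for 1 (30.5%).

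Much of the age result rests on 1 array. Without the 21-week KO array at 3 h, 2 of the 10 genes passed, Fndc3b and Pkd2, and without the shift between arrays 3 passed. With normexp background 9 passed, Nxpe5, Adam22 and Prom1 among them. Both 21-week arrays may come from 1 mouse, and a gene whose KO mean is lifted by them, as for Fndc3b, was also more easily chosen.

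**Figure D4:**
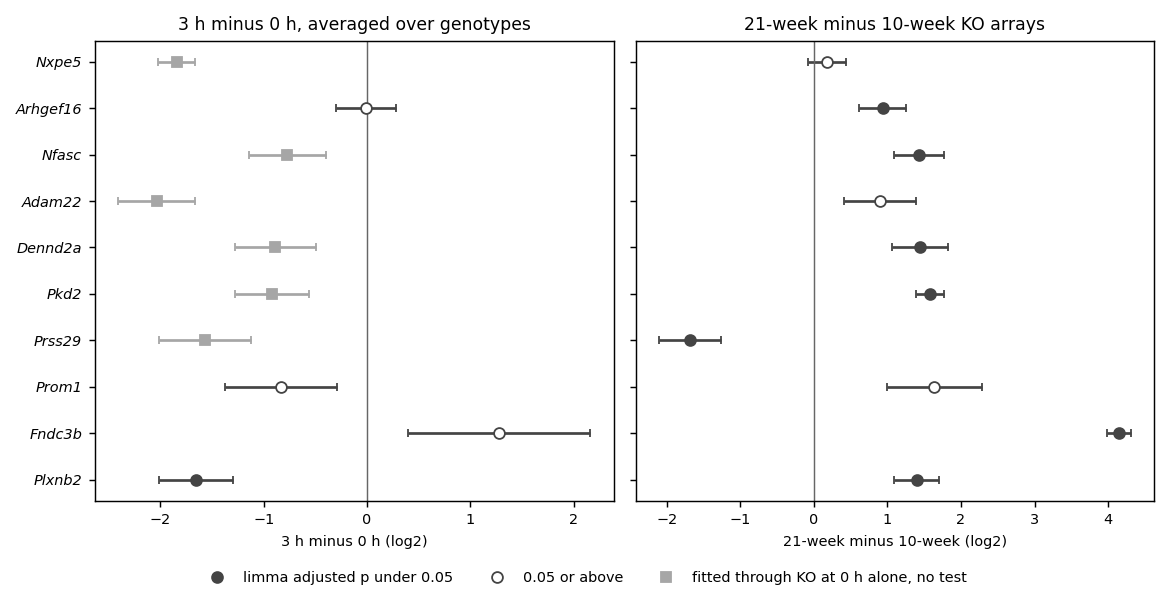
Differences in normalized log2 signal (x axes) with standard errors for the 10 genes (y axis), 3 h minus 0 h averaged over genotypes on the left and 21-week minus 10-week KO arrays on the right, with filled points where the limma adjusted p was under 0.05. Grey squares on the left mark the 6 genes without a test there. Plxnb2 is the one filled point on the left, and on the right Fndc3b stands at 4.15 and Prss29 is the one gene left of 0.

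Markers of other cell types moved with the same arrays. The summed signal of 12 monocyte and macrophage markers, in multiples of the array's 75th percentile, was 26.4 to 40.2 in KO and 5.13 to 9.46 in WT at 0 h, and 5.11 to 9.93 in KO and 1.06 to 1.5 in WT at 3 h, with 11 or 12 of 12 markers well above background on every array. This is the order of Plxnb2, highest in KO at 0 h and lowest in WT at 3 h. The 3 genes most like Plxnb2 over the 12 arrays were Itgb5 (Pearson r = 0.986), Pla2g4a (0.986) and Sirpa (0.985), the last an inhibitory receptor of myeloid cells. The part of myeloid cells in the Plxnb2 result was not tested.

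The 21-week arrays, on which Fndc3b was highest, had plasma cell marker sums of 190 and 272, against 7.44 to 20.5 on 10-week KO arrays and 4.83 to 9.5 in WT, with all 6 of those markers well above background. Their neutrophil sums were 57.2 and 18.3, against 0.123 to 1.18 on 10-week KO arrays and 0.139 to 0.479 in WT. Their T cell sums were 48.3 at 0 h and 27.7 at 3 h. On the 10-week KO arrays these sums were 121 and 137 at 0 h, below the 155 to 178 in WT. At 3 h they were 116 and 109, against 106 to 120 in WT. Of 9 T cell markers in the fit, 0 lay above 0 for KO minus WT at either time, and 0 were called. Fndc3b was most like Kank2 (Pearson r = 0.988), Zfyve21 (0.987) and Scpep1 (0.986). The part of plasma cells or neutrophils in the age differences was not tested.

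Mast cell and basophil markers summed to 1.35, 0.433 and 7 on the KO arrays at 0 h, in replicate order, and to 0.119 to 0.229 in WT, with 6 to 8 of 8 detected in KO and 4 to 6 in WT. The normalized log2 signal of Prss29 on the same arrays was -3.22, -5.00 and -5.73, in the same replicate order. At 3 h the sums were 0.305 to 1.91 in KO and 0.329 to 0.425 in WT. Prss29 was most like Tnfrsf21 (Pearson r = 0.958), Galnt3 (0.939) and Camk1 (0.935). The part of mast cells or basophils in the Prss29 result was not tested.

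Erythroid markers, 7 in the fit, summed to 34.8 to 65.8 in KO and 3.55 to 14.5 in WT at 0 h, without overlap, and to 4.21 to 43 in KO and 1.95 to 12.6 in WT at 3 h. Of the dendritic cell markers, Itgax and Batf3 were higher in KO at both times; at 0 h the difference was 3.11 ± 0.439 for Itgax (log2, SE, limma adjusted p = 0.00895) and 2.63 ± 0.453 for Batf3 (limma adjusted p = 0.0198). Of the 9 dendritic cell markers in the fit, 7 lay above 0 for KO minus WT at 0 h (median 2.05). At 3 h 6 did (median 1.09). The summed signal of the 10 markers, in which bright markers weigh most, was 25 to 31.1 in KO and 27.3 to 30.7 in WT at 0 h. At 3 h the sum was 33 to 100 in KO and 74.7 to 85.1 in WT, with overlap at both times. The part of these cells in the differences of the 10 genes was not tested.

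Markers of solid tissue were checked as well. Of 8 neuronal and glial markers, Rbfox3 and Sox10 were well above background on 0 of 12 arrays, and the list's sum was 1.13 to 1.33 in KO and 1.31 to 2.09 in WT at 0 h, and 0.765 to 1.42 in KO and 0.591 to 0.816 in WT at 3 h. For fibroblastic stroma, Col3a1, Dcn, Pdgfra, Pdgfrb, Lum and Pdpn were well above background on 0 of 12 arrays, and sums were 0.0343 to 0.0802 in KO and 0.0241 to 0.0472 in WT over both times. For endothelium, Cdh5 and Emcn were well above background on 0 of 12 arrays, with 4 to 6 of 8 markers detected per array. Endothelial sums were 1.61 to 2.37 in KO and 0.734 to 0.852 in WT at 0 h, and 0.674 to 1.29 in KO and 0.516 to 0.545 in WT at 3 h, without overlap at either time. Of the 5 endothelial markers in the fit, 3 lay above 0 for KO minus WT at 0 h and 4 at 3 h. Stab2 alone was called. Stab2, a scavenger receptor of sinusoidal endothelium, was higher in KO by 2.49 ± 0.307 at 0 h (log2, SE, limma adjusted p = 0.00569) and by 2.79 ± 0.307 at 3 h (limma adjusted p = 0.00255). Of 8 epithelial markers, Cldn4 and Muc1 were well above background on 0 of 12 arrays, and sums were 1.09 and 1.68 on the 21-week arrays, 0.0484 to 0.182 on 10-week KO arrays and 0.101 to 0.16 in WT.

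**Figure D5:**
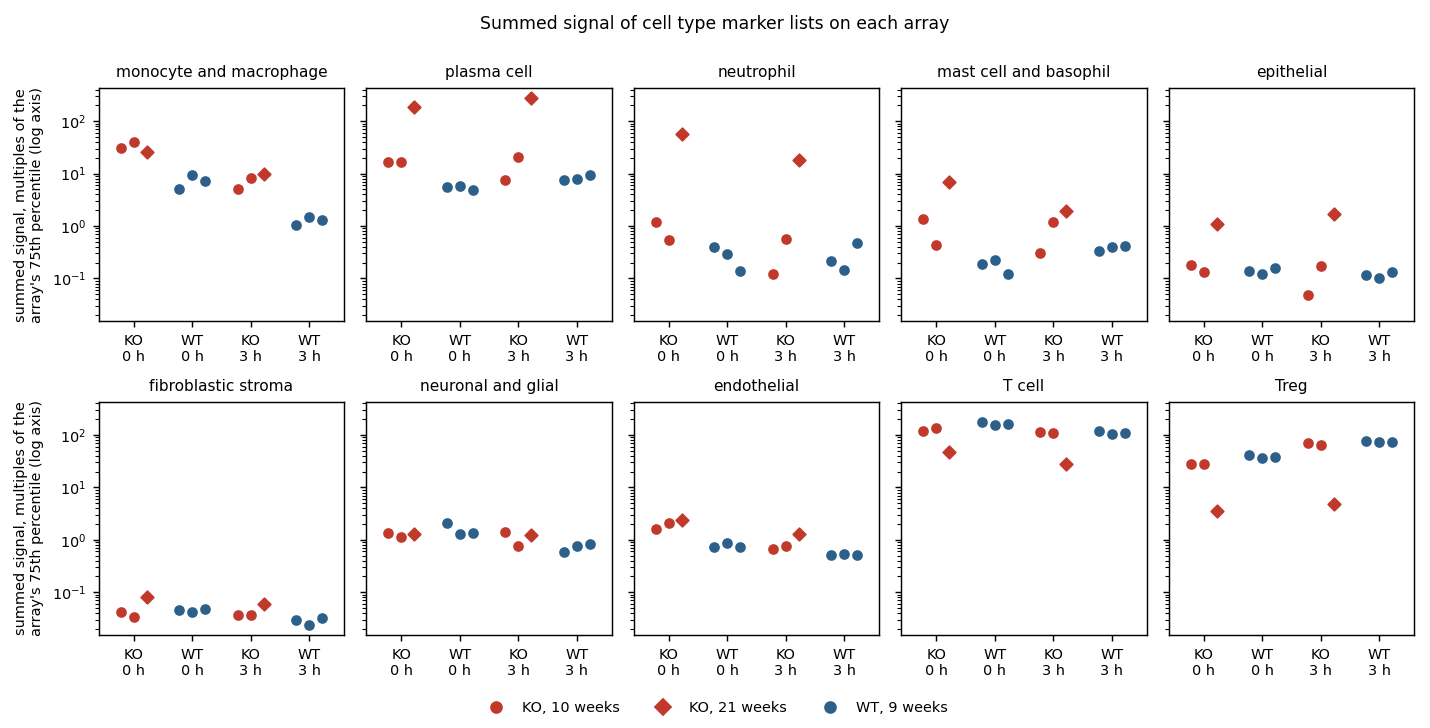
Summed signal of 10 marker lists on each array, in multiples of the array's 75th percentile on a log axis, by genotype and time (x axis), with diamonds for the KO arrays from 21-week mice. Monocyte and macrophage markers are higher in KO than in WT at each time, and the diamonds are high for plasma cell, neutrophil and epithelial markers and low for T cell and Treg markers.

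For the other genes, the patterns most like theirs over the 12 arrays are given as a description. Arhgef16 was most like Tnfaip2 (Pearson r = 0.974), Tnfrsf11a (0.966) and Snx8 (0.964). Nfasc was most like Ramp2 (0.976), Slc45a3 (0.975) and Gm2814 (0.972), and Prom1 most like Pgap4 (0.949), Anpep (0.939) and Ramp2 (0.936). Pkd2 was most like Gria3 (0.993), Dock1 (0.989) and Dennd2a (0.978), and Dennd2a most like Pkd2 (0.978), Gm2814 (0.976) and Gria3 (0.973). Adam22 was most like Npcd (0.969), Ppt2 (0.968) and Myo7a (0.965), and Nxpe5 most like Skp2 (0.972), Crip2 (0.969) and Nat8l (0.96).

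The families of the genes are described with the 10 genes left out. Since the 10 genes were picked as higher in KO, a contrast between them and their families is partly built in. Among all genes, limma called 1.82% higher and 0.259% lower in KO at 0 h, and 1.26% higher and 0.189% lower at 3 h. At such shares a short list would hold few calls or none, so 0 calls says little about a family. Of 21 semaphorin and plexin genes tested, 0 were called at 0 h and 1 was higher at 3 h, Sema6a (1.54 ± 0.287, log2, SE, limma adjusted p = 0.0285), with a list median of 0.14 at 0 h and 0.16 at 3 h. Of 16 DENN domain genes 0 were called at either time, with medians of -0.04 and -0.14. Of 11 polycystin and cilium genes 0 were called either, with medians of 0.23 and 0.52. Of 4 L1 family and axonal node genes 0 were called at either time, with medians of 0.10 and 0.89.

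Some relatives were higher in KO. Of 15 ADAM and LGI genes, 3 were higher at 0 h and 2 at 3 h, against list medians of -0.02 and 0.24. Adamdec1, a protease of macrophages, had a normalized log2 signal of -1.29, -1.18 and -1.0 in KO, against -3.71, -3.01 and -3.46 in WT, at 0 h. It was higher in KO by 2.23 ± 0.335 at 0 h (log2, SE, limma adjusted p = 0.0109) and by 2.98 ± 0.335 at 3 h (limma adjusted p = 0.0026), and it fell with activation by 3.42 ± 0.237 (limma adjusted p = 1.33e-05). The other calls were Adam23, like Adam22 a receptor for LGI proteins (2.56 ± 0.532 at 0 h, limma adjusted p = 0.0394), and Kcna2, a potassium channel (2.99 ± 0.563 at 0 h, limma adjusted p = 0.0266).

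Of 4 neurexophilin and PC-esterase genes, 1 was higher at 0 h and 0 at 3 h, with medians of 1.21 and 1.07. Nxpe4 gave -3.32, -3.79 and -3.86 in KO, against -6.67, -6.32 and -7.00 in WT, at 0 h (3.01 ± 0.597, log2, SE, limma adjusted p = 0.0328). With activation 3 of the 4 fell, Nxpe2, Nxpe3 and Nxpe4; Nxpe4 fell by 1.87 ± 0.422 (limma adjusted p = 0.0059). Of 7 tryptase and mast cell protease genes 0 passed at either time, with medians of 2.31 and 0.84, and all 7 lay above 0 at both times. Prss34, a basophil protease, differed by 5.43 ± 2.05 at 0 h (limma adjusted p = 0.241).

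Of 7 prominin and progenitor genes 1 was higher at 0 h, Kit, the stem cell factor receptor (3.27 ± 0.679, log2, SE, limma adjusted p = 0.0394), and 0 at 3 h, with medians of 0.73 and 1.11. Of that list, 5 were higher and 1 was lower on the 21-week arrays, Epcam by 3.92 ± 0.483 (limma adjusted p = 0.000236) among them. Of 6 fibronectin type III and matrix genes 1 was higher at 0 h, Fn1, which encodes fibronectin (4.20 ± 0.651, limma adjusted p = 0.0121), and 1 at 3 h, Itga5, a subunit of its receptor (1.28 ± 0.225, limma adjusted p = 0.0224), with medians of 0.97 and 0.58.

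The promoters of the 10 genes, taken as the 250 bases before each RefSeq start on GRCm38.p6, shared no simple sequence class. All 10 genes matched, with 13 promoters, and their GC content ran from 42.8% in Nxpe5 to 79.2% in Fndc3b, where the median over 32851 mouse promoters was 52.4%. Short motifs were searched on both strands, each motif by itself, and a promoter was counted if it held the motif at all. The TATA box core TATAAA was found in 1 of the 13 promoters, that of Prss29, and in 12.4% of all. The Sp1-type GC box GGGCGG was found in 6, of Arhgef16, Fndc3b, Nfasc, Plxnb2 and Prom1, and in 32.7% of all. The CCAAT box was found in 2 (33.8% of all) and the AP-1 motif TGANTCA in 2, both of Prom1 (6.75%). The PU.1-type motif GAGGAAGT was found in 1 (2.44%) and the E-box CACGTG in 1 (6.02%), and no match means only that these letters are not in the window.

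The promoters of Prss29 and Arhgef16 are printed because both genes were high in KO and their promoters differ in base composition, with 48.4% and 76.4% GC. Capitals mark TATAAA in Prss29, 29 bases before the start (chr17:25318404-25318653, plus strand), and GGGCGG or its reverse complement in Arhgef16, 6 times (chr4:154299896-154300145, minus strand), both on GRCm38.p6:
Prss29: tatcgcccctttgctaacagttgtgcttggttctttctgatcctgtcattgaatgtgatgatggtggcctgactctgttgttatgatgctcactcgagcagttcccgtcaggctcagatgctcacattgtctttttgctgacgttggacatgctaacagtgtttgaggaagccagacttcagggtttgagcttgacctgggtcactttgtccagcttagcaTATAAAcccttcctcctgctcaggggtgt
Arhgef16: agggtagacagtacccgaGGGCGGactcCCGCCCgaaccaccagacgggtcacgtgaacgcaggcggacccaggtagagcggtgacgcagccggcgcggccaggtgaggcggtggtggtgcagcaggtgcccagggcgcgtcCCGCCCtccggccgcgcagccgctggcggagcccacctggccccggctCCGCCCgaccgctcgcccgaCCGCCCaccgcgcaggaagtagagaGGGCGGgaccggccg

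By position, 4 of the 10 genes lie on chromosome 5 (Nxpe5, Adam22, Pkd2 and Prom1), which holds 6.12% of the genes fitted. Their mm9 probe positions are 138693044, 8072390, 104934662 and 44384861, so they lie far apart, and no test was made since the genes were chosen by their values.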

How the data were processed

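The deposited scanner files hold spot intensity on a linear scale, 1 file per array, with the processed signal background-subtracted with Agilent Feature Extraction, whose version is 10.7.3.1 in the file headers and 11 per the submitters' processing notes. The authors also deposited a table of log2 values, made with Partek per the submitters' processing notes, with a scaling that the sources used here do not give. Each array held 62976 spots and 59305 non-control spots. Control spots and outlier spots were left out and spots of 1 probe were averaged. Because a mean of 46.4% of probes was well above background, under 50%, the log2 signal was shifted by the 75th percentile over 19809 probes well above background on all 12 arrays. To enter, a probe had to pass the background flag on each of the 3 arrays of some group, and the brightest stood for its gene (18549 genes). Probes were named by RefSeq accession (27503), symbol (3554) or synonym (404), and 24220 kept the file's name. Group means were fitted with limma 3.58.1 in R 4.3.3 on all 12 arrays (8 residual degrees of freedom), two-sided, with Benjamini-Hochberg adjustment over all genes; the fits were tested on simulated data. The number of arrays limits the precision.

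The 10 genes, the family lists and the marker lists were chosen with earlier results of these data known. Named besides the 10 genes were the 3 genes with the highest correlation to each and up to 3 called genes per family list; Adam23, Kcna2 and Sema6a were named after their values were seen. One family list is not reported here. Alternatives were other scalings, backgrounds, filters and probe rules, leaving out each array and leaving out the 21-week arrays. Probe positions are those of the files (mm9); promoter sequences are RefSeq's (GRCm38.p6), and the builds were not mixed.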

Additional observations from a re-analysis of the deposited data

How the results depend on the processing

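No paired analysis was possible because the labels give no replicate numbers that tie arrays to mice, and slide could not be a block for KO against WT because each slide held 1 genotype. The counts of genes with every KO array above every WT array were 10 and 10 (0 h and 3 h), those with an activation call 4, of which 3 entered through KO at 0 h alone, and those with an age call 7. Keeping just those probes that passed the background flag on every array, each of the 4 counts was 1, since Plxnb2 alone could be fitted. The activation count was 2 with normexp background, 7 with no shift between arrays and 8 without both 21-week arrays. Each of these holds genes that entered through KO at 0 h alone, for which a fall was built in. With normexp background and with no shift, Plxnb2 was the only other gene. Over all genes, 3627 rose and 3586 fell with normexp background, 1523 and 3966 with no shift (of 18549), and 5073 and 6627 without both 21-week arrays (of 19121). The age count was 3 with no shift and 9 with normexp background. Leaving out single arrays gave 10 at 0 h, 9 to 10 at 3 h, 3 to 7 for activation and 2 to 7 for age, where 7 and 2 came without KO at 3 h replicate 3. For KO against WT, leaving out an array cannot bring in overlap for the same probe. Those counts could fall only where another probe took over. The difference with no shift between arrays and that with dim values raised to the lowest well-above-background signal were chosen after seeing the data. Differences that changed sign were the activation difference of Arhgef16 (0.20 quantile, 0.027 with the percentile over all probes, 0.19 deposited table, and -0.255 to 0.146 in fits leaving out 1 array), the age difference of Nxpe5 (-0.22 quantile, -0.21 deposited table, -0.51 no shift and -0.131 to 0.488 leaving out 1 array) and of Adam22 (-0.499 without KO at 3 h replicate 3, up to 2.31 without KO at 0 h replicate 3), and the KO minus WT difference of Adam22 (-0.58 at 0 h and -1.19 at 3 h with no filter, -2.21 at 3 h without WT at 3 h replicate 2, up to 2.16 without KO at 3 h replicate 1), where its second probe took over as the brightest. For other sign changes the cause was not tested.

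Over all genes, the calls higher and lower in KO at 0 h were 337 and 48, and over the alternatives they ran from 74 (without WT at 0 h replicate 1) to 909 and from 13 to 337 (both maxima without both 21-week arrays). At 3 h they were 233 and 35, running from 96 (no shift) to 4967 (no filter) and from 13 to 114. Activation calls were 3451 and 4234, running from 1523 and 3359 to 5130 and 6627. Age calls were 4285 and 4611, running from 1727 and 3429 to 8810 and 10490; normexp gave 6535 and 3429 and no shift gave 1727 and 10490, so the split depends on the scaling. The split at 0 h was 261 and 103 with the percentile over all probes. For 8 of the 10 genes no WT array at 0 h was well above background, and for Prom1 only 1 was, so their fitted differences depend on how dim values are treated.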
